A study of Mus musculus with 36 samples.

Results

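Genes that mark and shape the macrophage lineage were followed through primary mouse macrophages, adipocytes, myotubes and hepatocytes given a ketone body or a short-chain fatty acid. They are Csf1r, Spi1, Trem2, Tyrobp, Adgre1, Cd68, C1qa, C1qb and C1qc, and they were found as the rows of the deposited gene table whose identifiers carry these symbols (9 of 54347 genes). All 9 passed the filter on low counts, which left 15340 genes for testing (more than 1 CPM in at least 6 libraries, CPM being the counts of a gene per 1000000 counts of its library). Each cell type was kept for 6 h with PBS (control), 5 mM β-hydroxybutyrate (βOHB) or 5 mM butyrate, which gave 12 groups of 3 libraries and 36 RNA-seq libraries in all. βOHB is butyrate with a hydroxyl group on the beta carbon, and butyrate is known as an inhibitor of histone deacetylases. Cells came from male mice, which the methods give as C57BL/6NHsd for hepatocytes and as C57Bl/6 for the other cell types. Macrophages were grown from bone marrow in medium conditioned by L929 cells, a source of CSF1. Adipocytes were differentiated from stromal vascular cells of inguinal fat pooled from several mice, and how far they had differentiated was judged by eye. Myotubes came from hindlimb myoblasts that had been preplated to remove fibroblasts, whereas hepatocytes were isolated by perfusion of the liver and were not differentiated in culture. No step that removes resident macrophages from the adipocyte, myotube or hepatocyte cultures is given in the sources used here.

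Csf1r encodes the receptor of the growth factor CSF1, on which macrophages depend for survival and proliferation, and Spi1 encodes PU.1, the ETS transcription factor that directs myeloid development and binds the regulatory regions of many macrophage genes. TREM2 is a lipid-sensing receptor that signals through the adaptor DAP12, the product of Tyrobp. Adgre1 encodes F4/80, the classical surface antigen of mouse macrophages, Cd68 a heavily glycosylated protein of late endosomes and lysosomes, and C1qa, C1qb and C1qc the A, B and C chains of C1q, which start the classical complement pathway and are made mainly by macrophages.

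Positions are given on GRCm38. Spi1 (ENSMUSG00000002111) lies at chr2:91082390-91115756, Trem2 (ENSMUSG00000023992) at chr17:48346401-48354147 and Adgre1 (ENSMUSG00000004730) at chr17:57358691-57483527, all on the plus strand. Tyrobp (ENSMUSG00000030579) lies on the plus strand at chr7:30413760-30417585 and Cd68 (ENSMUSG00000018774) on the minus strand at chr11:69664213-69666153. The C1q genes form a cluster on the minus strand of chromosome 4, with C1qb (ENSMUSG00000036905) at chr4:136880129-136886187, C1qc (ENSMUSG00000036896) at chr4:136889804-136893065 and C1qa (ENSMUSG00000036887) at chr4:136895917-136898803. The cluster spans 18675 bp, with 3616 bp between C1qb and C1qc and 2851 bp between C1qc and C1qa. None of these 8 genes overlapped another annotated gene.

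Because PU.1 recognises a purine-rich core, the 250 bases before the transcription start of the genes were searched for GAGGAA on either strand (TTCCTC when read on the other). RefSeq start sites (GRCm38.p6) were used for Trem2, Cd68, C1qb and C1qc. All 4 windows held the core once, against 23.3% of the 32851 windows searched. No start site was at hand for Spi1, Tyrobp, Adgre1 and C1qa. Csf1r was left out of this search for another reason, which is not given here. Counts out of 4 therefore say nothing of the Csf1r window and do not describe the whole set of genes. The longer GAGGAAG was present in the windows of Trem2 and C1qc (2 of 4, against 10.6% of all windows). The windows of 3 genes that fell together in myotubes (described below) are given here 5′ to 3′ on the strand of the gene, with the core in capitals.
Trem2, chr17:48346151-48346400, plus strand: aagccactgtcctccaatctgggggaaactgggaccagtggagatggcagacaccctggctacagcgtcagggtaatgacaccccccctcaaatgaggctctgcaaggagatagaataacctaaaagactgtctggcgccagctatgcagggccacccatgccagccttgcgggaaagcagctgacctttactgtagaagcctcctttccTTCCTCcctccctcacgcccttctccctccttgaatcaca
Cd68, chr11:69666171-69666420, minus strand: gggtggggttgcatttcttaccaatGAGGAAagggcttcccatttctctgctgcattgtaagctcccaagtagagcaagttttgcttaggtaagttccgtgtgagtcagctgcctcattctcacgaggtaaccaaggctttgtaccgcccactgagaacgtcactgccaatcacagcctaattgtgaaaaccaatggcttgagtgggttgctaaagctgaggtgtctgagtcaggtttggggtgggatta
C1qb, chr4:136886201-136886450, minus strand: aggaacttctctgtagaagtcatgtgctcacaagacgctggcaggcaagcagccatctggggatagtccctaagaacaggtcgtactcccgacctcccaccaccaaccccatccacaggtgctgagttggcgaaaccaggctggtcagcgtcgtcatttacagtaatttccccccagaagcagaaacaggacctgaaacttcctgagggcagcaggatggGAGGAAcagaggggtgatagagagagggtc
The core began 40 bases before the start of Trem2 (on the reverse strand), 225 bases before that of Cd68 and 30 bases before that of C1qb. A match in these letters says nothing of binding, which was not measured.

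Library depth was 18366289 to 23221473 estimated counts (median 22177562), and levels are given in CPM after TMM scaling. The spread of the 9 genes within groups was small in macrophages and wide in myotubes, with an SD of log2 CPM of 0.01 to 0.03 in macrophage controls and 0.52 to 1.03 in myotube controls. Transcripts of hepatocyte markers (Alb, Apoa1, Ttr, Cps1, Apoc3, Fgb and Ahsg, 7 genes) summed to at most 0.176 CPM in myotube controls, but to 41.7, 757 and 182 CPM in the 3 butyrate libraries of myotubes and to 31.8 CPM in βOHB replicate 3. None of the pairs of replicates was 1 library deposited again. Nothing in the labels says that replicates came from separate animals or cultures, so p-values measure the spread between these libraries, which may be technical.

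In control cultures the 9 genes were highest in macrophages. Their median share of that level was 3.98% in adipocytes and 2.28% in myotubes, and they were at or below 2.76 CPM in every hepatocyte control except for Cd68. Csf1r (ENSMUSG00000024621) spans chr18:61100598-61132149 on the plus strand, and overlaps Hmgxb3 on the other strand and Mir6983. Whether the reads kept their strand is not given in the sources used here, so that reads from the overlap could belong to either gene. Csf1r stood at 1471, 1416 and 1412 CPM in macrophages, where it ranked 49 by CPM among the 15340 genes, and at 47.2, 48.0 and 49.1 CPM in adipocytes. In myotubes it was 45.6, 37.9 and 14.6 CPM, the third library being far lower than the others, and in hepatocytes 1.82, 1.97 and 1.18 CPM. Every macrophage control lay above every control of the other cell types for each of the 9 genes, as was true of 39.7% (adipocytes), 40.7% (myotubes) and 42.2% (hepatocytes) of all genes. All 9 were called higher in macrophages than in adipocytes, myotubes and hepatocytes, where 37.9%, 39.3% and 41.4% of all genes were called higher in the same comparisons (edgeR, adjusted p below 0.05). The median log2 fold change over the 9 was 4.65 against adipocytes, 5.45 against myotubes and 9.06 against hepatocytes. The genes were chosen as macrophage genes, so these calls follow from the choice and only describe levels. Against hepatocytes the values of Spi1, Trem2 and Tyrobp rest on at most 9 counts per hepatocyte control.

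The order below macrophages was not the same for all genes. As a share of the macrophage control level, adipocyte controls ranged from 1.78% (Tyrobp) to 8.16% (C1qa), and myotube controls from 1.09% (Trem2) to 9.18% (C1qa). Csf1r, Spi1, Trem2, Adgre1 and Cd68 were higher in every adipocyte control than in every myotube control, as were 39.8% of all genes, Csf1r by a narrow margin (47.2 against 45.6 CPM). This pair of controls was not tested. The ranges of Tyrobp and of the 3 C1q chains overlapped, and their adipocyte values fell inside the wider range of myotubes, so that adipocytes and myotubes could not be placed in order for them. C1qa, for example, was 22.0, 31.2 and 32.3 CPM in adipocytes and 46.6, 35.3 and 14.3 CPM in myotubes. In hepatocytes Spi1 gave 4 to 8 counts per control library, Trem2 1 to 3 counts and Tyrobp 3 to 9 counts.

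Cd68 departed from this order. It was 105, 94.4 and 83.0 CPM in hepatocyte controls, 7.53% of the macrophage level and more than in any adipocyte (41.0 to 43.5 CPM) or myotube control (11.3 to 29.6 CPM). The other 8 genes reached at most 0.612% of the macrophage level there (C1qa). The Kupffer cell markers, which mark the resident macrophages of liver, summed to 7.44 to 8.84 CPM in hepatocyte controls. The same list summed to 228 to 237 CPM in macrophage controls, with 1 gene over 1 CPM there, so the sum is not particular to liver. In hepatocyte controls most of the sum came from Cd5l (3.44 ± 0.327 CPM), Marco (2.24 ± 0.348) and Vsig4 (1.45 ± 0.196), with Clec4f at 0.917 ± 0.228 CPM and Timd4 at 0.142 ± 0.0683 CPM (SD, n = 3).

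Between genes, levels were compared per kilobase of exon. In macrophage controls Cd68 (995 ± 14.5 CPM per kb, SD, n = 3) and Tyrobp (981 ± 11.7) were the highest and differed by about their spread, followed by C1qb (833 ± 6.49) and C1qc (394 ± 8.96), while Spi1 was the lowest (85.5 ± 1.14). In adipocyte and myotube controls C1qb was the highest, at 42.9 ± 4.01 and 36.2 ± 17.3 CPM per kb. This order depended on the length used. By the longest transcript Tyrobp (1096 ± 13.1 CPM per kb) stood above Cd68 (1016 ± 14.8), C1qc was at 633 ± 14.4, and Spi1 (113 ± 1.52) and Trem2 (111 ± 1.83) were the lowest and differed by about their spread. Trem2 was 108 CPM per kb with all exons and 489 CPM per kb with its principal transcript. The principal transcript was chosen as a length after the data were seen.

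**Figure D1:**
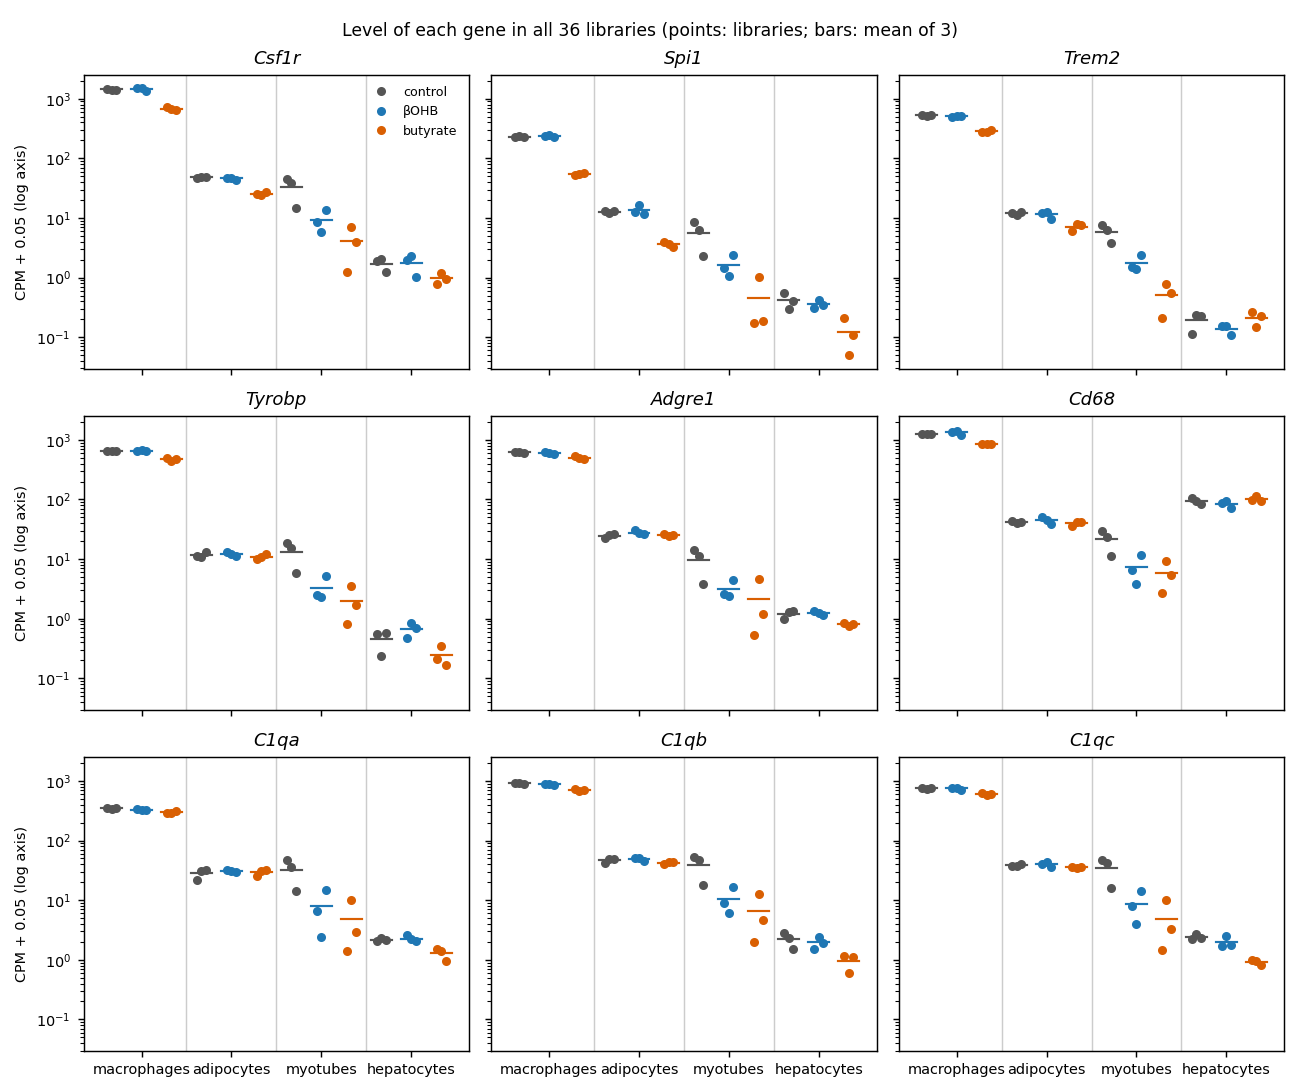
Level of each gene in the 36 libraries, as CPM with 0.05 added on a log axis, by cell type; points are libraries (grey control, blue βOHB, orange butyrate) and short bars are means of 3. Macrophages are highest in all 9 panels. Among controls hepatocytes are lowest except for Cd68, some myotube butyrate libraries lie below hepatocyte controls (Spi1 at 0.122 CPM against 0.246 to 0.502), and the 3 libraries of a myotube group lie far apart, with the third control the lowest of its group throughout.

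Butyrate in macrophages asks whether the fatty acid changes genes of the lineage within 6 h. It lowered 5 of the 9 genes and raised 0, whereas 33.2% of all tested genes were called lowered in this comparison and 31.9% raised. Spi1 fell 4.22-fold, Csf1r 2.10-fold and Trem2 1.87-fold, and Cd68 and Tyrobp fell less. The median log2 fold change was -0.48 over the 9 genes and 0.00 over all genes. For each of the 9 genes the 3 butyrate libraries lay below the 3 controls, as was true of 37.3% of all genes.

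Spi1 was 230, 234 and 228 CPM in controls and 52.5, 55.2 and 56.1 CPM after butyrate, a log2 fold change of -2.08 ± 0.17 (SE, edgeR adjusted p = 4.9e-12). Csf1r went from 1471, 1416 and 1412 CPM to 713, 677 and 654 CPM (log2 fold change -1.07 ± 0.25, adjusted p = 0.00043). Replicates were tight on both sides, and no control came near a treated library. Trem2 was 538, 522 and 537 CPM in controls and 281, 275 and 299 CPM with butyrate (-0.90 ± 0.11, adjusted p = 9.95e-09). Its adaptor Tyrobp was 659, 646 and 659 CPM in controls against 503, 439 and 469 CPM (-0.48 ± 0.19, adjusted p = 0.028). The receptor was thus lowered by a larger factor than the adaptor it signals through, and the Trem2 to Tyrobp ratio went from 0.809 to 0.817 in controls to 0.559 to 0.638. Cd68 fell from 1230, 1257 and 1264 CPM to 866, 855 and 841 CPM (-0.55 ± 0.23, adjusted p = 0.0404).

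Adgre1 and the C1q chains did not pass the test across the 36 libraries. Adgre1 was 632, 625 and 608 CPM in controls and 537, 499 and 475 CPM with butyrate (-0.30 ± 0.21, adjusted p = 0.21). C1qb, the most abundant chain, was 913, 908 and 899 CPM against 736, 672 and 701 CPM (-0.37 ± 0.28, adjusted p = 0.253). C1qa (-0.23, adjusted p = 0.508) and C1qc (-0.35, adjusted p = 0.257) gave values of the same sign. In this test the spread is shared by all cell types, and it takes in the wide spread of the myotube libraries. With the 9 macrophage libraries alone all 9 genes were called lowered, C1qa at -0.20 ± 0.04 (adjusted p = 0.000313) and Adgre1 at -0.27 ± 0.05 (adjusted p = 6.89e-05), and with library totals as the only scaling 3 were (Csf1r, Spi1 and Trem2). The share of all genes lowered with the macrophage libraries alone is not given here, so that count cannot be set against it. Why the counts differ between fits was not tested. With 1 macrophage library left out at a time, Csf1r, Spi1 and Trem2 passed in 6 of 6 fits, Tyrobp in 2 and Cd68 in 0 (adjusted p 0.0661 to 0.0984).

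Most of the other marker genes of macrophages were lowered too. Of 18 such genes (Ptprc, Itgam, Itgb2, Cx3cr1 and others), butyrate lowered 11 and raised 1 (Cd86, a costimulatory ligand), where 33.2% of all genes were lowered and 31.9% raised. Their summed level was 22190 to 22463 CPM in controls and 13889 to 14567 CPM with butyrate. Set against that sum, library by library, Spi1 was lower by 1.42, Csf1r by 0.42 and Trem2 by 0.25 on the log2 scale. C1qa was higher by 0.42, Adgre1 by 0.35, C1qc by 0.30 and C1qb by 0.28. Tyrobp (0.17) and Cd68 (0.10), although called lowered, were also higher against the sum. Relative to the median of the 18 markers in place of their sum, Spi1 was still lower (by 1.04), Csf1r was lower by 0.04 and Trem2 was higher by 0.13, so that the sign for Trem2 depended on which was used. Proliferating cell markers (5 genes, Mki67 among them) were also lower, at 1446 to 1479 CPM in controls and 592 to 688 CPM with butyrate, and their part in the result was not tested. In bulk RNA, fewer cells of a type and less RNA per cell cannot be told apart.

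**Figure D2:**
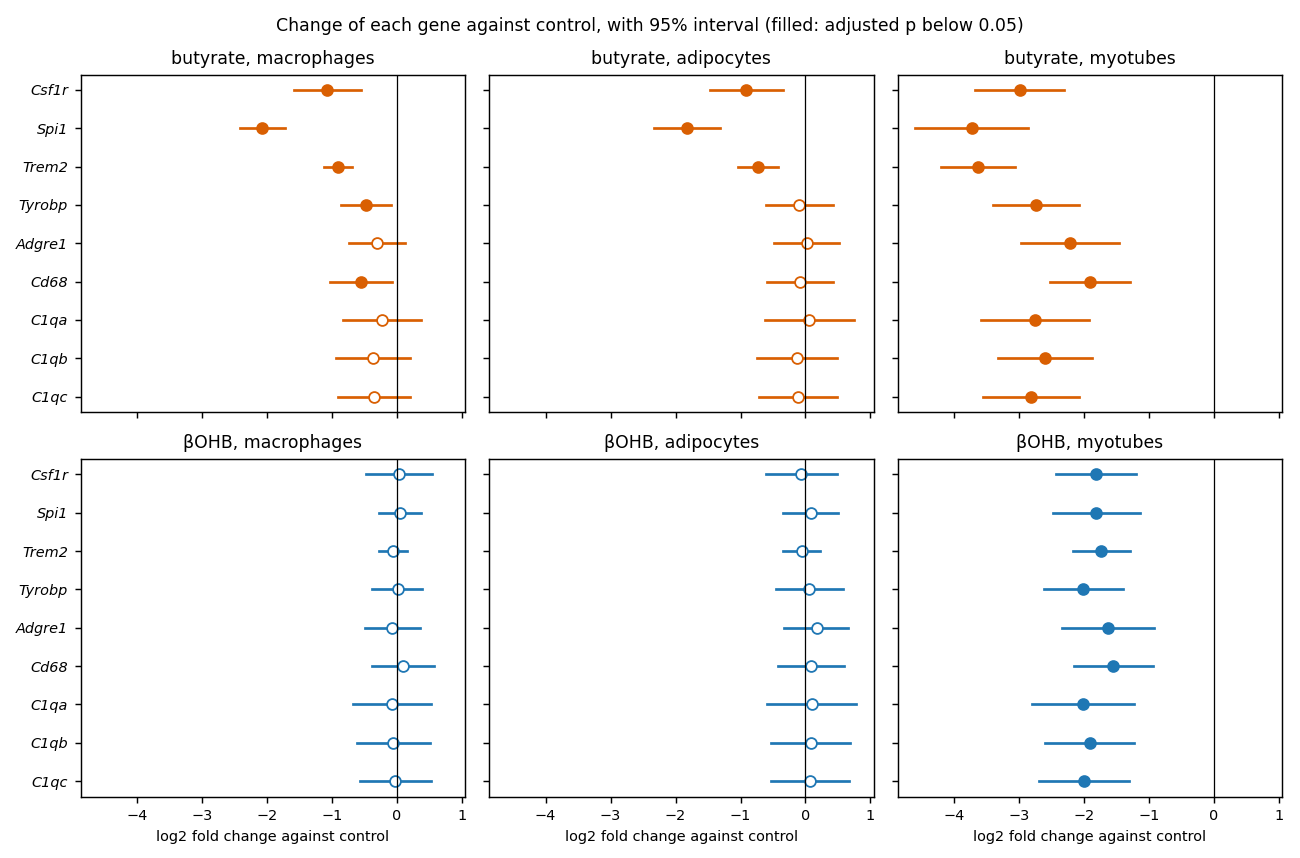
Log2 fold change of each gene against control (x axis) with its 95% interval, for butyrate (orange, upper row) and βOHB (blue, lower row) in macrophages, adipocytes and myotubes; filled points had an adjusted p below 0.05. Spi1, Csf1r and Trem2 are filled under butyrate in all 3 cell types, no point is filled under βOHB in macrophages or adipocytes, and all 9 are filled in myotubes under both compounds.

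Genes that act beside the 9 were taken from lists by role, and their counts stand beside the 33.2% of all genes that butyrate lowered and the 31.9% that it raised in macrophages. Of 8 tested ligands and related receptors of the CSF1 axis, 4 were lowered by butyrate in macrophages and 0 raised, with Csf3r, the G-CSF receptor (-2.38 ± 0.10), and Pdgfrb, a receptor kinase of mesenchymal cells (-1.63 ± 0.17), at the smallest p. The ligand Csf1 itself was at -0.06 ± 0.13 and did not pass. The median of the list was -0.38. Among 18 myeloid transcription factors beside PU.1, 10 were lowered and 5 raised (median -0.46). Zeb2, a zinc-finger factor of the macrophage lineage, fell by 2.42 ± 0.08 and Fli1, an ETS factor, by 1.84 ± 0.10 on the log2 scale, whereas Irf4, an interferon regulatory factor, rose by 3.56 ± 0.24 and the immediate early factor Egr1 by 0.89 ± 0.10. The adjusted p of these 6 genes ranged up to 5.82e-09 (Egr1).

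Partners of TREM2 and DAP12 (15 tested) were lowered in 8 cases and raised in 3, with a median of -0.30 (33.2% of all genes were lowered and 31.9% raised). The receptor Cd300lb (-1.59 ± 0.08) and the adaptor Lat2 (-1.55 ± 0.14) fell, while the TREM family receptors Treml4 (2.57 ± 0.28) and Trem1 (1.15 ± 0.23) rose. Of 20 lysosomal and scavenger receptor genes, 13 were lowered and 2 raised (median -0.48): Scarb2, a lysosomal membrane receptor, and Npc1, which exports cholesterol from lysosomes, were at -0.57 ± 0.06 and -0.58 ± 0.07, and the scavenger receptors Scarb1 and Olr1 at 0.57 ± 0.06 and 1.90 ± 0.51. Among 14 classical complement genes beside C1q, 5 were lowered and 1 raised (median -0.20), a share lowered near the 33.2% of all genes. C3ar1, the receptor of C3a, fell by 2.70 ± 0.18 and Cd93 by 1.27 ± 0.14, and C1qbp, a mostly mitochondrial protein that binds C1q, rose by 0.29 ± 0.07. All the genes named in this paragraph had an adjusted p below the threshold, the largest being 0.00157 (Olr1).

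βOHB at the same dose and time called 0 of the 9 genes in macrophages by edgeR, with 0 at an unadjusted p below the threshold as well, and 0% of all genes were raised or lowered. Log2 fold changes ran from -0.08 (C1qa) to 0.09 (Cd68). The 95% interval of Spi1 was -0.28 to 0.37 and that of Csf1r -0.48 to 0.54, so a change of Spi1 as large as that under butyrate lay outside its interval. For Trem2, C1qa and C1qb the 3 βOHB libraries lay below the 3 controls, as was true of 5.51% of all genes. Limma-voom and DESeq2 also called 0 of the 9, on all libraries or on the macrophage libraries alone.

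Butyrate and βOHB differ in structure by the hydroxyl group, and the 2 compounds were compared directly at 5 mM and 6 h in each cell type (4 pairs of groups, adjusted over all genes within each). In macrophages Csf1r, Spi1, Trem2, Tyrobp and Cd68 were lower with butyrate than with βOHB (32.8% of all genes were), Spi1 by a log2 difference of -2.12 ± 0.17 (adjusted p = 3.12e-12) and Csf1r by -1.10 ± 0.25 (adjusted p = 0.000325). With 1 library left out Tyrobp passed in 2 of 6 fits and Cd68 in 4 of 6, and with library totals as the only scaling or by DESeq2 the calls were Csf1r, Spi1 and Trem2. C1qa differed by -0.15 with an interval of -0.75 to 0.45 (0.07 with library totals as the only scaling), and Adgre1 by -0.24 with an interval of -0.67 to 0.19. In adipocytes Csf1r, Spi1 and Trem2 were lower with butyrate (29.5% of all genes), and in myotubes Csf1r, Spi1 and Trem2 were (32.9% of all genes), at -1.18 ± 0.36, -1.92 ± 0.55 and -1.90 ± 0.36. With 1 myotube library left out the count ran from 2 to 9, and Csf1r passed in 4 of 6 fits (adjusted p = 0.0777 without βOHB replicate 3). With the myotube libraries alone only Trem2 was called by edgeR and limma-voom. In hepatocytes 0 of the 9 were called lower (33.0% of all genes) or higher (30.5%), also at an unadjusted p below the threshold. Other fits gave other counts: with the hepatocyte libraries alone edgeR called 7 lower and 1 higher and limma-voom 6 and 1, and DESeq2 on all libraries called 4 lower. The shares of all genes called in these other fits are not given here.

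In adipocyte cultures butyrate lowered 3 of the 9 genes and raised 0, where 30.3% of all genes were lowered and 30.7% raised. Spi1 was 12.9, 12.2 and 13.1 CPM in controls and 3.94, 3.67 and 3.23 CPM with butyrate (3.52-fold lower, log2 fold change -1.82 ± 0.25, adjusted p = 2.21e-07). Csf1r fell from 47.2, 48.0 and 49.1 CPM to 25.3, 24.4 and 26.9 CPM (-0.91 ± 0.27, adjusted p = 0.0048). Trem2 fell from 11.9, 11.3 and 12.5 CPM to 6.11, 7.75 and 7.49 CPM (-0.73 ± 0.15, adjusted p = 9.4e-05). These were the 3 genes with the lowest fold changes in macrophages as well. They passed in all 6 fits with 1 adipocyte library left out and with the adipocyte libraries alone.

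The other 6 genes did not pass in adipocytes, with values from -0.13 (C1qb) to 0.05 (C1qa). Tyrobp was 11.1, 10.8 and 12.9 CPM in controls and 9.91, 10.8 and 11.9 CPM with butyrate, and C1qa 22.0, 31.2 and 32.3 CPM against 25.7, 30.8 and 32.0 CPM. Treated and control libraries overlapped for all of the 6 but C1qc. The interval of C1qa reached from -0.63 to 0.74, so a fall of the size seen for C1qa in macrophages (-0.23) lay inside it. The 18 macrophage markers summed to 412 to 454 CPM in controls and to 371 to 392 CPM with butyrate. Of these 3 were called lower and 2 higher, shares below the 30.3% of all genes lowered and the 30.7% raised. Relative to that sum Spi1 was lower by 1.62, Csf1r by 0.72 and Trem2 by 0.55 on the log2 scale, and in each case the 3 butyrate ratios lay below the 3 control ratios. βOHB called 0 of the 9 in adipocytes by edgeR, limma-voom and DESeq2 (0 at an unadjusted p below the threshold by edgeR, and 0.00652% of all genes lowered), with values from -0.07 (Csf1r) to 0.17 (Adgre1).

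The lists by role were mixed in adipocytes, where butyrate lowered 30.3% and raised 30.7% of all genes. It lowered 3 and raised 1 of 8 CSF1 axis genes, lowered 10 and raised 5 of 18 myeloid transcription factors, and lowered 4 and raised 1 of 15 partners of TREM2 and DAP12. It lowered 6 and raised 4 of 20 lysosomal and scavenger receptor genes and lowered 4 and raised 1 of 14 complement genes, so that the shares lowered of the partners, lysosomal and complement lists were near or below that of all genes. In myotubes the counts under butyrate were 4 lowered and 2 raised for the CSF1 axis, 9 and 7 for the transcription factors, 7 and 4 for the partners, 8 and 4 for the lysosomal genes and 7 and 6 for complement, where 33.4% of all genes were lowered and 33.1% raised. The same butyrate libraries held hepatocyte marker transcripts (41.7 to 757 CPM), and the complement list summed to 9731 to 11664 CPM in hepatocyte controls. The part of such transcripts in the raised counts was not tested. Under βOHB in myotubes 2, 5, 7, 5 and 4 genes of these lists were lowered, in the same order, and 0 were raised, where 2.56% of all genes were lowered. These βOHB counts come from the test over the 36 libraries, and with the myotube libraries alone edgeR called 0 genes of all 15340.

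The myotube cultures gave the largest changes. Butyrate lowered all 9 genes, where 33.4% of all genes were lowered, with a median log2 fold change of -2.75 over the 9 and 0.00 over all genes. βOHB also lowered all 9 in the test over the 36 libraries, with a median of -1.82, where 2.56% of all genes were lowered. The 2 comparisons share their control libraries. Control replicate 3 was the lowest control and βOHB replicate 3 the highest βOHB library for each of the 9 genes, and butyrate replicate 2 was the highest butyrate library for each.

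Csf1r was 45.6, 37.9 and 14.6 CPM in controls, 8.68, 5.69 and 13.4 CPM with βOHB (-1.82 ± 0.30, adjusted p = 0.000403) and 1.18, 7.12 and 3.98 CPM with butyrate (-2.99 ± 0.33, adjusted p = 4.35e-09). Spi1 was 8.44, 6.21 and 2.29 CPM in controls, 1.42, 1.02 and 2.35 CPM with βOHB (-1.81 ± 0.33) and 0.122, 0.971 and 0.134 CPM with butyrate (-3.73 ± 0.43). The lowest of these Spi1 values rest on 3 estimated counts. For both genes the third control and the third βOHB library were close to each other. Trem2 was 7.52, 6.21 and 3.70 CPM in controls, 1.47, 1.33 and 2.39 CPM with βOHB and 0.163, 0.728 and 0.492 CPM with butyrate (-1.74 ± 0.21 and -3.64 ± 0.28), and the 3 groups did not overlap.

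Tyrobp was 18.7, 15.3 and 5.89 CPM in controls, 2.43, 2.27 and 5.14 CPM with βOHB and 0.773, 3.48 and 1.65 CPM with butyrate. C1qb stood at 52.6, 47.6 and 17.9 CPM in controls, at 8.91, 6.09 and 16.3 CPM with βOHB and at 1.95, 12.8 and 4.56 CPM with butyrate (-1.91 ± 0.34 and -2.60 ± 0.35). The chain that stood highest against macrophages, C1qa, went from 46.6, 35.3 and 14.3 CPM to 6.61, 2.35 and 14.7 CPM with βOHB and to 1.38, 9.83 and 2.91 CPM with butyrate. C1qc (-2.00 and -2.82 under βOHB and butyrate), Adgre1 (-1.63 and -2.21) and Cd68 (-1.55 and -1.91) fell as well in this test. Groups did not overlap for 8 of the 9 genes under butyrate (32.5% of all genes had every butyrate library below every control), the exception being Adgre1. Under βOHB 5 of the 9 did not overlap (8.34% of all genes), and Spi1, Adgre1, Cd68 and C1qa did.

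The calls for βOHB in myotubes changed when only the myotube libraries were fitted. Such a fit changes the spread, the scaling and the number of libraries together, and which of these mattered was not tested. With the 9 myotube libraries alone, edgeR gave 0 of 9 (adjusted p 0.287 to 0.474), with log2 fold changes of -2.06 to -1.59 and 9 of 9 at an unadjusted p below the threshold, limma-voom gave 0 and DESeq2 gave 1 (Trem2, adjusted p = 0.0121). Butyrate in myotubes kept 9 of 9 under each of these. Leaving out butyrate replicate 2, the library with the most hepatocyte transcripts, gave 9 lowered genes with values of -5.40 to -2.44. Without βOHB replicate 3, the only βOHB library with over 1 CPM of those transcripts, βOHB still lowered 9 (-2.84 to -1.96), and without control replicate 3 both compounds lowered 9. Adgre1 under βOHB passed in 4 of 6 fits with 1 myotube library left out, and was lost without control replicate 1 (adjusted p = 0.12) or βOHB replicate 2, while the other 8 genes passed in 6 of 6. The part of the hepatocyte transcripts in the result was not tested.

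Macrophage markers other than the 9 fell in the same libraries. Of the 18, βOHB lowered 17 and butyrate lowered 17 and raised 1 (Mertk, a receptor for the uptake of dead cells), with medians of -1.69 and -2.43, where 2.56% and 33.4% of all genes were lowered. As for the 9 genes, 0 of the βOHB calls remained in edgeR with the myotube libraries alone, where 0 of 15340 genes were called. The genes with the smallest p were the Fc receptor Fcgr3 (-1.69 ± 0.22) and the chemokine receptor Cx3cr1 (-2.30 ± 0.31) under βOHB, and Fcgr3 (-3.08 ± 0.27) and the tetraspanin Cd53 (-1.61 ± 0.15) under butyrate. The sum of the 18 was 504, 414 and 195 CPM in controls, 113, 90.7 and 188 CPM with βOHB and 43.2, 140 and 65.4 CPM with butyrate, so that it had the same lowest control and the same highest treated libraries as the 9 genes. Relative to this sum the βOHB values of the 9 were between -0.76 (C1qa) and -0.01 (Adgre1), and control and βOHB ratios overlapped for Csf1r, Spi1, Adgre1, Cd68 and C1qa. Under butyrate Spi1 remained lower by 2.06 and Trem2 by 1.62, Csf1r by 0.96, and Cd68 was higher by 0.25. Proliferating cell markers were 35.3 to 76.9 CPM in controls, 21.6 to 26.9 with βOHB and 16.3 to 22.0 with butyrate, and neutrophil markers summed to at most 0.537 CPM in any myotube library. Myotube markers (8 genes, Myog and Ckm among them) stood at 23942 to 29443 CPM in controls, 29774 to 32235 with βOHB and 16431 to 22062 with butyrate.

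**Figure D3:**
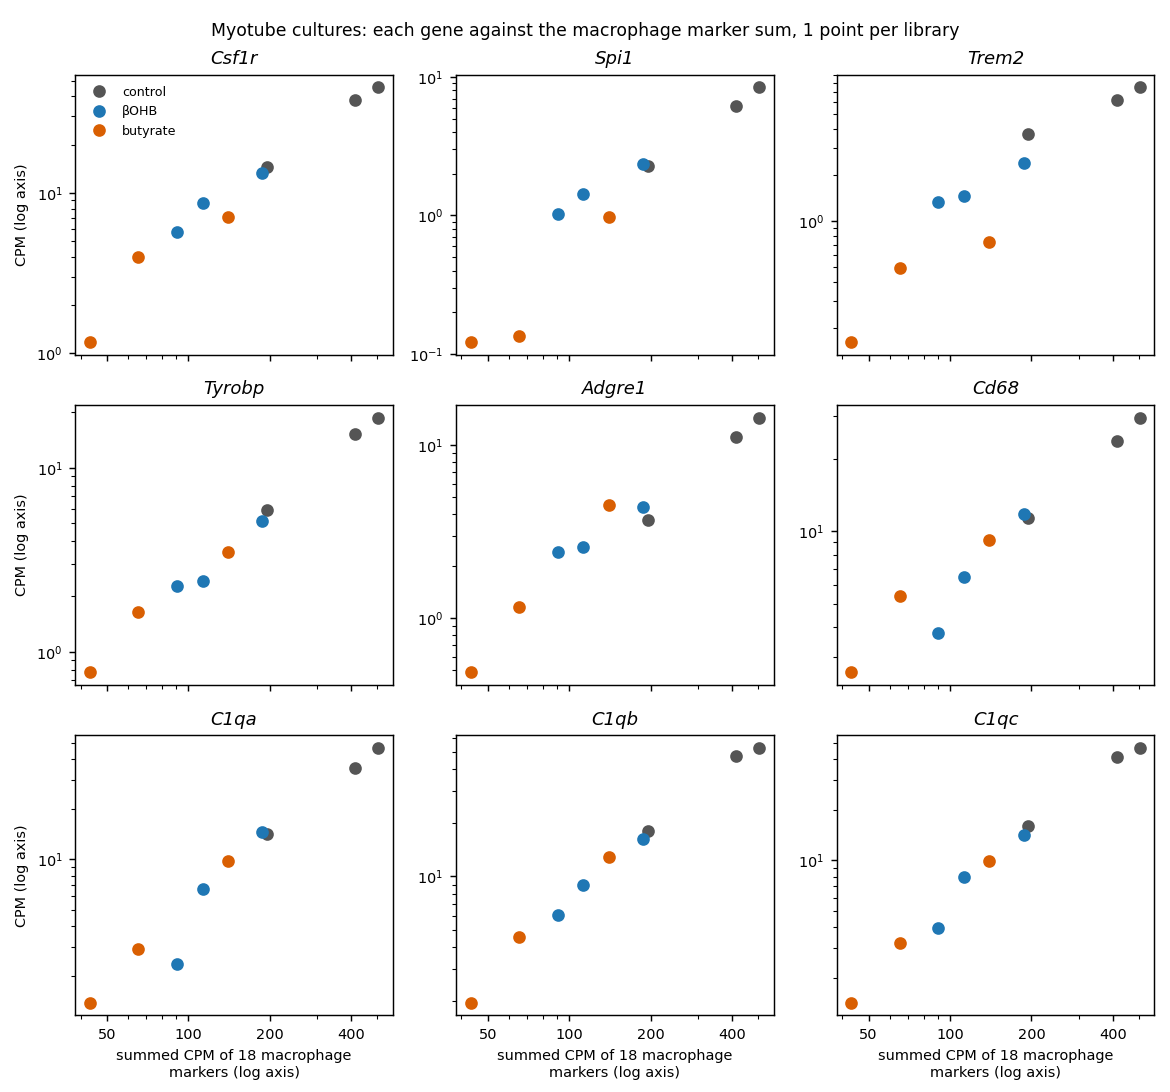
Each gene (CPM, log y axis) against the summed CPM of the 18 macrophage markers (log x axis) in the 9 myotube libraries, 1 point per library (grey control, blue βOHB, orange butyrate). The points rise together in all panels, the third control (marker sum 195 CPM) sits beside the third βOHB library (188 CPM), and the 3 butyrate libraries are the lowest points of the Spi1 and Trem2 panels.

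Hepatocyte cultures gave no call for the 9 genes under butyrate by edgeR (0 at an unadjusted p below the threshold), where 32.4% of all genes were lowered. Levels were low and the intervals wide, as for Spi1, which was 0.502, 0.246 and 0.355 CPM in controls and 0.159, 0 and 0.0600 CPM with butyrate, the last being 3, 0 and 1 counts. C1qc, at 2.20, 2.64 and 2.25 CPM in controls and 0.954, 0.892 and 0.781 CPM with butyrate, had every treated library below every control (-1.42 ± 0.78, adjusted p = 0.116), as had 6 of the 9 genes (35.5% of all genes). Kupffer cell markers summed to 7.44 to 8.84 CPM in controls and 2.92 to 3.66 CPM with butyrate (2 of 2 tested were lowered), and endothelial markers to 64.8 to 72.4 CPM and 19.9 to 23.6 CPM (4 of 5 were lowered). The 18 macrophage markers summed to 72.7 to 85.7 CPM and 60.9 to 64.4 CPM, with 0 lowered and 2 raised (the share of all genes raised is not given here). Their part in the result was not tested. With the hepatocyte libraries alone edgeR and limma-voom called 5 of the 9 lower and DESeq2 4, and the share of all genes lowered in those fits is not given here. Cd68 was 96.2, 115 and 95.4 CPM with butyrate and 105, 94.4 and 83.0 CPM in controls (0.12 ± 0.24). βOHB called 0 of 9 in hepatocytes by each of the 3 tools (0% of all genes lowered, 0.00652% raised).

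The response to butyrate was compared between cell types by the difference of the log2 fold changes. For macrophages minus adipocytes 0 of the 9 differences passed (edgeR, adjusted p 0.313 to 0.795, 0 at an unadjusted p below the threshold), and 19.5% of all genes had a lower and 17.2% a higher value in macrophages. The difference was -0.26 for Spi1 (interval -0.89 to 0.37), -0.16 for Csf1r and -0.17 for Trem2, whereas it was -0.47 for Cd68 and -0.38 for Tyrobp. With the macrophage and adipocyte libraries alone Tyrobp, Adgre1, Cd68 and C1qc had a lower value in macrophages (4 of 9), and the share of all genes in that fit is not given here. For macrophages minus myotubes all 9 differences passed, from 1.36 (Cd68) to 2.73 (Trem2), the fall in macrophages being the smaller one in every case, where 22.0% of all genes had a higher value in macrophages. For macrophages minus hepatocytes 0 passed (0 at an unadjusted p below the threshold), with an SE of 0.78 to 1.21 for the genes other than Cd68, whose hepatocyte counts were low and which the filter kept through other cell types. This says little of whether they differ. Of all genes 22.4% had a higher and 22.0% a lower value in macrophages.

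Ratios between the 9 genes showed how far the cultures shared one pattern. The ratio of C1qa to C1qb was 0.379 to 0.392 in macrophage controls, 0.528 to 0.663 in adipocyte controls and 0.741 to 0.885 in myotube controls, 3 ranges that did not overlap. The ratio of C1qc to C1qb was close in all 3 (0.817 to 0.854, 0.745 to 0.887 and 0.870 to 0.904). The share of Spi1 to Csf1r was 0.156 to 0.165 in macrophage controls and 0.0737 to 0.0858 with butyrate, and fell likewise from 0.253 to 0.272 to 0.120 to 0.156 in adipocytes. In myotubes it was 0.157 to 0.185 in controls, 0.164 to 0.180 with βOHB and 0.0337 to 0.136 with butyrate. With 3 libraries a group the smallest p of an exact permutation test of such a ratio is 0.1, and none was run.

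**Figure D4:**
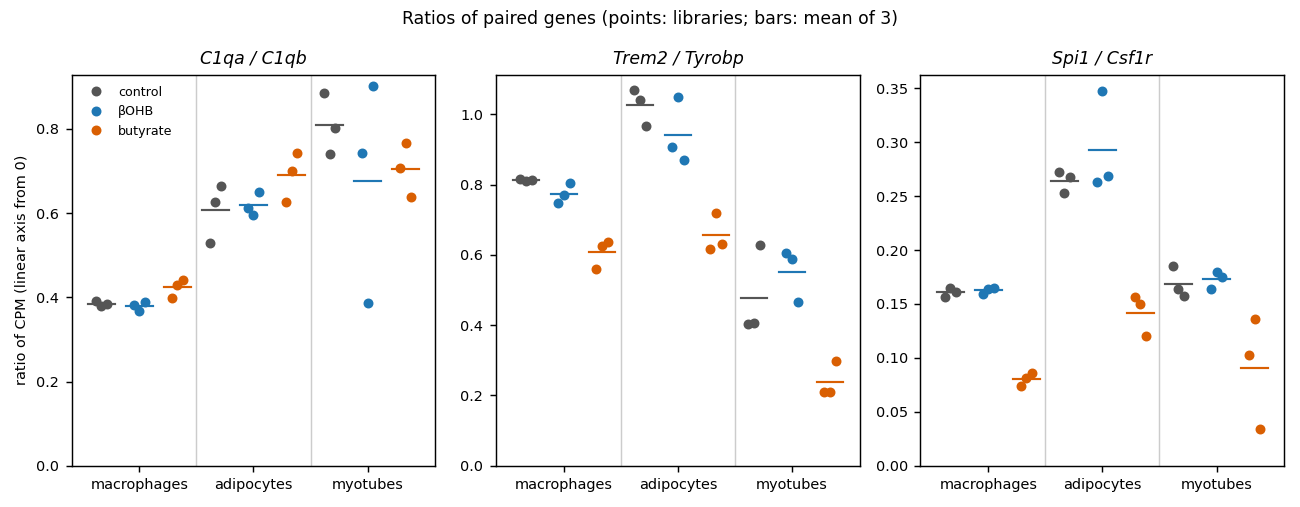
Ratio of CPM of C1qa to C1qb, Trem2 to Tyrobp and Spi1 to Csf1r (linear axes from 0) in macrophages, adipocytes and myotubes; points are libraries (grey control, blue βOHB, orange butyrate) and bars are means of 3. C1qa to C1qb rises from macrophage to adipocyte to myotube controls, and the other 2 ratios are lower in every butyrate library than in every control of the same cell type.

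Over the 12 group means the Pearson r of each gene to the mean profile of the 9 was 0.986 (Spi1) to 0.997 (Csf1r), and 0.727 for Cd68. Each gene is part of that mean, the 12 groups share their cell types, and the high macrophage level of the genes sets most of r, so that a high r does not show that the genes changed alike under treatment. No p is given. Among the 15340 tested genes outside the 9, Cybb, the catalytic subunit of the phagocyte oxidase (0.999), the integrin chain Itgb2 (0.998), the exchange factors Dock2 (0.997) and Vav1 (0.996), and the cytokine subunit Ebi3 (0.996) had the profiles most like that mean. Cybb, which is also among the 18 markers, was 657 ± 22.6 CPM in macrophage controls and 316 ± 22.1 CPM with butyrate, and 15.5 ± 8.39 CPM in myotube controls and 1.99 ± 1.96 CPM with butyrate (SD, n = 3). Another 179 genes were at least 10 CPM in macrophage controls and 16 times higher than in adipocyte and hepatocyte controls (1 CPM added to each). Since these controls chose the genes, their change is given for myotubes, whose libraries were not used to choose them. There butyrate lowered 129 and raised 25 of them (median -1.77), and βOHB lowered 115 and raised 0 (median -1.36), where 33.4% and 2.56% of all genes were lowered. With the myotube libraries alone edgeR called 0 genes under βOHB.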

How the data were processed

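Processed values of 36 RNA-seq libraries were used, all in 1 table. The authors assigned paired-end reads with Salmon 1.2.1 to GENCODE M25 mouse transcripts and summed them over genes (tximport). Estimated counts for 54347 genes are what the authors deposited. Their methods describe scaling by transcript length and library size, while library totals differ in the table and 55.6% of values above 0 are whole numbers. Groups came from the labels. Symbols and positions came from GENCODE M21 (GRCm38, 54094 genes matched), since M25 was not used here. The authors tested with limma.

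Estimated counts were rounded, filtered (CPM above 1 in at least 6 libraries), and scaled by TMM. Tests used edgeR 4.0.16 under R 4.3.3 (quasi-likelihood F test over all 36 libraries, 12 groups, 18 comparisons, Benjamini-Hochberg adjustment over 15340 genes, threshold 0.05). A run on simulated data gave each gene the same spread in all groups. It could not show how the test behaves where the spread differs between cell types, as it does here. Log2 CPM used a prior count of 2. Intervals are 95%. The alternatives were limma 3.58.1 (voom), DESeq2 1.42.0, RLE or library totals as scaling, other filters, only the libraries compared, a block for the replicate number, leaving out each library, a prior count of 0.5, other gene lengths and the median of markers. Voom and DESeq2 on 1 cell type, all libraries without myotubes and the principal transcript were added after the data were seen.

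The 9 genes and all lists (5 by role, 12 of cell type markers) were chosen with earlier results of these data known, so no p was adjusted over a list. Named genes of a list were up to 2 raised and 2 lowered of smallest p. Likeness named the 5 genes of highest r. Cd86, Mertk and Csf1 were named after their values were seen. Depth was 18366289 to 23221473 counts. The pairing of replicate numbers was checked by the correlation of deviations from group means. No pair of groups had all 3 correlations above 0.1.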

Additional observations from a re-analysis of the deposited data

Results flagged for a closer look

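The change under butyrate differed between macrophages and myotubes for all 9 genes, by the test of the difference itself (edgeR over 36 libraries, log2 fold change in macrophages minus that in myotubes), where 22.0% of all genes had a higher value in macrophages. Of the 18 other macrophage markers 15 were also called higher and 1 lower (median 1.81). The difference was 1.92 for Csf1r (adjusted p = 0.000419), 1.65 for Spi1 (0.0103), 2.73 for Trem2 (3.11e-08) and 2.27 for Tyrobp (1.59e-05). It was 1.91 for Adgre1 (adjusted p = 0.000596), 1.36 for Cd68 (0.00473), 2.52 for C1qa (0.000157), 2.23 for C1qb (0.000163) and 2.47 for C1qc (4.94e-05). In macrophages 3 of 3 butyrate libraries were below all controls for each gene, and in myotubes for each gene other than Adgre1, as was true of 37.3% and 32.5% of all genes. The summed level of the 18 markers in myotubes was 195 to 504 CPM in controls and 43.2 to 140 CPM with butyrate. The myotube libraries with butyrate also held hepatocyte marker transcripts (41.7 to 757 CPM), and the part of either in the difference was not tested. Leaving out myotube butyrate replicate 1 or 3 ended the call for Spi1 (adjusted p = 0.0745 for the former).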

How the results depend on the processing

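Butyrate in macrophages lowered 5 of the 9 genes, 3 with library totals alone or DESeq2, and 9 without a filter, with only the macrophage libraries (also by limma-voom and DESeq2) or without the myotube libraries; with 1 library left out 3 to 4. Library totals moved the median of all genes there by 0.20 (log2) and split all calls into 6685 raised and 3339 lowered, against 4886 and 5086. Butyrate against βOHB in macrophages lowered 5, but 3 with library totals or DESeq2, 8 without a filter or without the myotube libraries, 9 with only those libraries by each tool, and 3 to 5 with 1 left out. βOHB in myotubes lowered 9, but 0 with only the myotube libraries (limma-voom 0, DESeq2 1) and 8 to 9 with 1 library left out. Over all genes the 53 raised and 393 lowered genes became 0 and 0 there. Butyrate against βOHB in myotubes lowered 3, but 9 without a filter, 1 with only those libraries by edgeR or limma-voom, and 2 to 9 with 1 left out, the 9 coming without butyrate replicate 2. In adipocytes butyrate against βOHB lowered 3, but 2 by DESeq2 and 5 without the myotube libraries. In hepatocytes butyrate lowered 0, but 5 without a filter, with only those libraries (edgeR, limma-voom) or without the myotube libraries, 3 by DESeq2 and 4 by DESeq2 on those libraries. Against βOHB it lowered 0 and raised 0, but 6 and 1 without a filter or by limma-voom on those libraries, 7 and 1 by edgeR on them or without the myotube libraries, 4 and 1 by DESeq2 on them, and 4 by DESeq2. For macrophages minus adipocytes 0 became 1 without a filter and 4 with only those libraries or without the myotube libraries. For macrophages minus hepatocytes 0 lowered and 0 raised became 1 and 2 without a filter or without the myotube libraries, 1 and 3 with only those libraries, and 1 lowered by limma-voom. For macrophages minus myotubes 9 were raised, 8 to 9 with 1 library left out. Shares of all genes in these other fits are not given except where stated, so the counts cannot be set against them. The causes were not tested. Adipocyte values under butyrate that did not pass changed sign in 6 cases: Adgre1 (0.02) was -0.02 without a filter and between -0.05 and 0.06 (-0.00 in another case) with 1 library left out, Cd68 (-0.08) was 0.01 with library totals, and C1qa (0.05) was between -0.10 and 0.15 (-0.01 in another case) with 1 left out. Replicate numbers are shared labels and no pairing of the samples was found, and with the replicate number as a block 4 of 9 genes were lowered by butyrate in macrophages (Cd68 at adjusted p = 0.0582) and 9 in myotubes by either compound. Of 1351 alternative values for single genes and levels, 1251 kept their side of the threshold or moved by less than 1 SD. These values take in the comparisons between controls. They leave out treatments in hepatocytes, butyrate against βOHB and βOHB in macrophages and adipocytes. The butyrate differences of macrophages minus adipocytes and minus hepatocytes are left out too, so the count does not cover several comparisons that moved. In hepatocytes Spi1, Trem2 and Tyrobp rested on 0 to 15 counts a library.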

Other observations

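Other marker lists are given under butyrate in macrophages, where 33.2% of all genes were lowered and 31.9% raised. Of the 8 myotube markers 8 were raised (median 2.69), although their summed level was 20.0 to 62.7 CPM against 6.23 to 13.3 CPM in controls, and of the 5 endothelial markers 3 were lowered. Of the dendritic cell markers (2 of 5 tested) 1 was raised, of the Kupffer cell markers (2 of 5 tested) 1 was lowered, of the 7 fibroblast markers 1 was raised, of the 6 adipocyte markers 2 were lowered, and of the 5 proliferating cell markers 5 were lowered (median -1.02). None of the 7 hepatocyte markers was called by edgeR in macrophages, nor was the 1 tested gene of the 7 T and B cell markers, and no neutrophil (7) or mast cell marker (4) was high enough to be tested.

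In myotubes, where butyrate lowered 33.4% and raised 33.1% of all genes, it lowered 3 of the 8 myotube markers and 4 of the 5 proliferating cell markers. All 7 hepatocyte markers were called higher, but their sum was at most 0.176 CPM in controls. That sum was 41.7 to 757 CPM in the butyrate libraries and up to 31.8 CPM with βOHB. A fold over controls near 0 has no firm size, and the source of these transcripts was not tested. The ligand Csf1 of the CSF1 receptor was 374 ± 17.9 CPM in myotube controls, 1591 ± 52.8 CPM in adipocyte controls and 433 ± 16.6 CPM in macrophage controls (SD, n = 3).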
